A study of Mus musculus with 21 samples.

Results

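Rhabdomyosarcomas of mice were ranked by how strongly they expressed 6 genes of macrophages, T cells and antigen-presenting cells, and the 7 tumors ranked highest were compared with the 7 ranked lowest, out of 21 tumors in all. The tumors arose in the trunk and limb of 2 compound mutant lines. NPE mice carried Neu1+/−/Ptch1+/−/ETV7 TG+/− (14 tumors), and PE mice carried Ptch1+/−/ETV7 TG+/− (7 tumors). All animals thus shared 1 disrupted copy of Ptch1, the receptor that restrains hedgehog signaling, and a human ETV7 transgene, and only NPE animals also lacked 1 copy of the sialidase gene Neu1. The strain background was mixed, and the age, sex and tumor site of each animal were not used here. RNA of each frozen tumor was measured on 1 Clariom S Mouse array, and every value below is a log2 RMA signal, on which a difference of 1 is a 2-fold difference.

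The ranking score was the mean log2 value of Csf1r, the receptor for the macrophage growth factor CSF1, C1qb, a complement chain made by macrophages, Lyz2, the lysozyme of myeloid cells, Cd3e, a chain of the T cell receptor complex, Cd4, the co-receptor of helper T cells, and H2-Aa, a chain of MHC class II. Tumors above the cut are called immune-rich and those below it immune-poor, and these names stand for the 6 genes only. Macrophages and lymphocytes enter most solid tumors. Interferon-gamma, released by activated T cells and natural killer cells, makes tumor, stromal and myeloid cells raise MHC class I, MHC class II, the immunoproteasome and guanylate-binding proteins. Bulk tumor RNA adds up all these cells, so fewer cells of a type and less RNA per cell cannot be told apart in any of the values below.

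The score ran from 6.77 in NPE tumor 11 to 8.53 in NPE tumor 4. The last tumor inside the immune-rich side, NPE tumor 7, scored 7.97, and the first outside it, PE tumor 3, scored 7.93. At the other end PE tumor 5 scored 7.48 and was counted as immune-poor, and NPE tumor 13, at 7.57, was not. Both limits thus cut between neighbors of nearly equal score.

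The tumors of both sides were chosen by the values of these 6 genes, which therefore describe the choice and were not tested. Cd3e had the widest range of the 6, from 4.78 to 6.94 in the immune-rich and from 3.73 to 4.36 in the immune-poor tumors. Cd4 ranged from 6.14 to 7.10 and from 4.87 to 5.63. H2-Aa was 10.02 ± 0.38 (s.d., n = 7) in immune-rich and 9.05 ± 0.46 (s.d., n = 7) in immune-poor tumors. The myeloid genes differed less, by 0.75 for Csf1r, 0.64 for C1qb and 0.56 for Lyz2, so that Cd3e and Cd4 weighed most in the order. Cd3e was highest in NPE tumor 4, and Lyz2 and C1qb were highest in NPE tumor 3, so the immune-rich tumors did not all carry the same gene at the top.

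**Figure D1:**
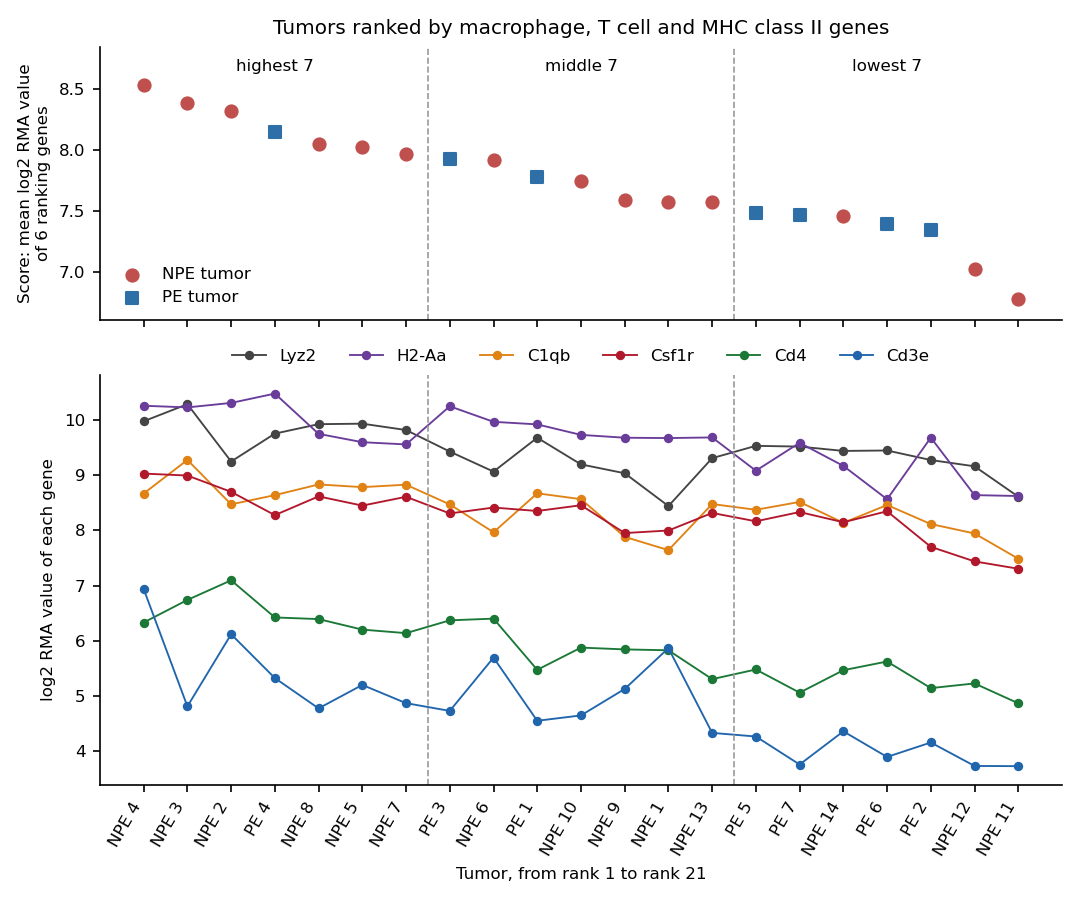
Upper panel, ranking score of each of 21 tumors in log2 units (circles NPE, squares PE), in order of rank, with dashed lines at the borders of the highest, middle and lowest 7. Lower panel, log2 RMA value of each of the 6 ranking genes in the same order. The score falls from 8.53 to 6.77 with no wide step at either border, and Cd3e and Cd4 fall further along the ranking than the myeloid genes.

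The make-up of the sides by genotype was unequal, and the difference did not pass a test. The immune-rich side held 6 NPE tumors and 1 PE tumor, the middle 5 and 2, and the immune-poor side 3 NPE and 4 PE tumors (Fisher's exact test, highest against lowest, 2-sided p = 0.266). NPE tumors scored 7.78 ± 0.50 (s.d., n = 14) and the PE tumors 7.65 ± 0.31 (s.d., n = 7) over the whole ranking (exact permutation test over 116280 arrangements, 2-sided p = 0.525). The highest and the lowest scores both belonged to NPE tumors. When the tumors were ranked by Csf1r, C1qb and Lyz2 alone, the make-up turned the other way, with 5 NPE tumors on the rich and 6 on the poor side (Fisher's exact p = 1).

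Some features of the tumors and arrays moved with the sides. NPE tumors 11 and 12, both immune-poor, resembled each other across all probe sets after subtraction of each probe set's mean (r = 0.71), as did PE tumors 6 and 7, also both immune-poor (r = 0.68), and NPE tumors 7 and 8, both immune-rich (r = 0.47). The labels do not say whether such tumors came from 1 animal. The array median was 5.36 to 5.41 in immune-rich and 5.32 to 5.36 in immune-poor tumors (exact permutation test over 3432 arrangements, 2-sided p = 0.0035). The share of probe sets above the median of the background probes was 87.0% on average on both sides (exact permutation p = 0.950). The last number in the tumor titles, of unstated meaning, fell in the range 1 to 10 for 3 immune-rich and 1 immune-poor tumor, in 18 to 23 for 1 and 2, and in 28 to 35 for 3 and 4 (exact permutation p = 0.633).

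More genes passed the test as higher than as lower in the immune-rich tumors. Of 22200 probe sets other than those of the ranking genes, 367 were higher (1.65%) and 68 were lower (0.306%) at an adjusted p under 0.05 by limma. The higher ones differed by a median of 0.86 on the log2 scale and 118 of them by at least 1, whereas none of the lower ones differed by as much as 1, and the largest fall was by 0.71. The 2 sides did not overlap at all for 253 probe sets (1.14%), 183 of them higher and 70 lower. Over all probe sets 43.2% were higher, with a median difference of -0.03, and 2187 were higher and 1848 lower at an unadjusted p under 0.05. The test asks which other genes went with the 6. Since the sides were made from these same arrays, genes of the same cells come along by construction.

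The 7 middle tumors were not used in this comparison. Their median lay between the medians of the 2 sides for 343 of the 367 higher probe sets (93.5%) and 65 of the 68 lower ones (95.6%), against 41.7% of all probe sets. Both sets were picked for a wide gap between the sides, within which a middle median falls easily, so these shares describe them and test nothing. The count of passing probe sets depended on the tumors treated as separate. With each of the 3 pairs of similar tumors averaged, 1 probe set was higher and 0 were lower at the adjusted threshold, and 1766 and 1371 at an unadjusted p under 0.05, although all 367 and all 68 kept their sign and the median of the 367 was again 0.86. With the array median as a covariate 0 passed in either direction, and the median of the 367 was 0.53. What part the similar tumors or the array median had in the result was not tested.

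The gene lists below are described by how many measured members were higher or lower, which gives the sign of the difference only, and how many passed, which means an adjusted p under 0.05 by limma over all probe sets. Over all 19499 genes, 43.7% were higher in the immune-rich tumors, 1.71% passed as higher and 0.282% as lower, and the median difference was -0.03.

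**Figure D2:**
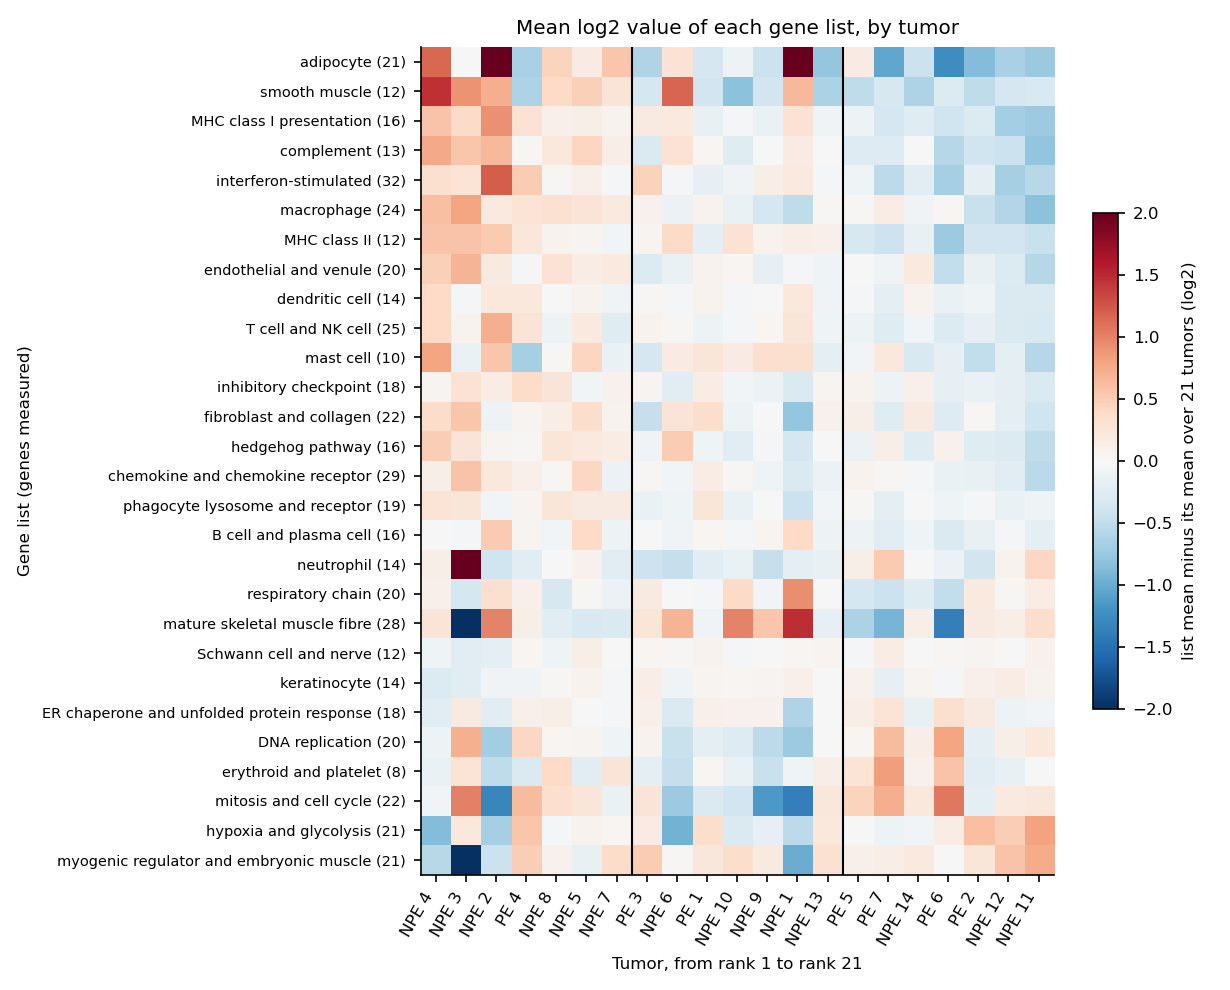
Mean log2 value of each of 28 gene lists in each tumor, as the difference from that list's mean over 21 tumors (red higher, blue lower, colors stop at 2 and -2), with tumors from rank 1 to rank 21 and lists ordered by their median difference. Interferon, MHC and complement lists grade from red to blue along the ranking, and the adipocyte list is at its highest in NPE tumor 1 of the middle group.

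Macrophage genes were higher almost as a whole. Of 24 measured genes 23 were higher, 8 passed (Aif1, Cybb, Fcer1g, Cx3cr1, Mpeg1, Adgre1, C1qc and Cd84) and the median difference was 0.66. The list mean lay between 7.26 and 7.86 in immune-rich and between 6.25 and 7.22 in immune-poor tumors, so that the sides just separated. Since 3 of the 6 ranking genes mark macrophages, this follows the choice of tumors.

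Cybb, the catalytic subunit of the phagocyte NADPH oxidase, ranged from 7.68 over a median of 8.38 to 8.55 in immune-rich and from 6.73 over 7.26 to 7.59 in immune-poor tumors. It was 0.92 higher (standard error 0.16, limma adjusted p = 0.0178), and this passed whichever of the 14 tumors was left out. A fit that leaves out 1 of a pair of similar tumors keeps the other. With the pairs averaged, Cybb did not pass (limma adjusted p = 0.0778). Mpeg1, the pore-forming perforin-2 of phagocytes, was higher by 0.79 (adjusted p = 0.0201) and Cd84, a SLAM-family receptor, by 0.66 (adjusted p = 0.0241). Neither gene overlapped between the sides. Marco, a scavenger receptor, was the 1 member below 0, at -0.14.

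Several of the largest differences belonged to genes known from macrophage and dendritic cell subsets. Pla2g2d, a secreted phospholipase of dendritic cells and macrophages in lymphoid tissue, ranged from 6.36 over 7.10 to 8.97 in immune-rich and from 4.30 over 4.66 to 5.00 in immune-poor tumors. It was 2.80 higher (standard error 0.36, adjusted p = 0.00442), and its 7 immune-poor values sat close together while the immune-rich ones spread over more than 2 log2 units. Among the middle tumors NPE tumors 6 and 1 were at 8.27 and 8.22, as high as most immune-rich ones.

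Dnase1l3, a secreted DNase of dendritic cells and macrophages, ranged from 4.55 over 5.45 to 6.78 in immune-rich and from 2.76 over 2.82 to 3.80 in immune-poor tumors, where it was above the background median in 3 of 7 arrays only. The fitted difference was 2.48 (standard error 0.31, adjusted p = 0.00442), with most immune-poor values at or below background, so its size is uncertain there. Spic, a transcription factor of splenic red pulp macrophages, ranged from 4.96 over 5.54 to 7.68 and from 3.27 over 3.76 to 4.42, a difference of 2.02 (adjusted p = 0.0186). None of these 3 genes overlapped between the sides, and each passed whichever tumor was left out. Cd209g, a C-type lectin of the DC-SIGN family, was higher by 2.09 (adjusted p = 0.044), overlapped, and passed in 3 of the 14 fits that left out 1 tumor.

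MHC class II genes other than the one used for ranking followed it. Of 12 measured genes 9 were higher, 5 passed (H2-DMb1, H2-DMb2, H2-DMa, H2-Ab1 and H2-Ob) and the median difference was 0.51. The 3 members below 0 were H2-Eb2 and the transcription factor subunits Rfxap and Rfx5.

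H2-DMb1, a chain of the H2-DM chaperone that loads peptides on class II, ranged from 7.83 over 8.34 to 8.70 in immune-rich and from 6.55 over 7.06 to 7.51 in immune-poor tumors. The difference was 1.28 (standard error 0.17, adjusted p = 0.00442). H2-DMa, its partner chain, was 6.26 ± 0.39 (s.d., n = 7) and 5.14 ± 0.30 (s.d., n = 7), a difference of 1.12 (adjusted p = 0.0109). H2-Ab1, the beta chain that pairs with H2-Aa, was higher by 0.94 (adjusted p = 0.0178). All 3 were free of overlap between the sides and passed whichever tumor was left out. With genotype as a covariate H2-DMb1 and H2-DMa passed again, and H2-Ab1 did not (0.87, limma adjusted p = 0.0585).

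H2-Eb1, a class II beta chain, went with genotype more than with the ranking. It lay between 4.24 and 5.98 in all 7 PE tumors and between 6.77 and 8.71 in all 14 NPE tumors, so that PE tumor 4 was at 5.98 on the immune-rich side and NPE tumor 11, the tumor of lowest score, at 6.94. Its difference of 2.05 between the sides (adjusted p = 0.0595) did not pass, and became 1.07 with genotype as a covariate. Neu1 lies within the mouse MHC, so Neu1 genotype and the MHC haplotype around it cannot be told apart in these tumors.

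MHC class I presentation genes were higher in the immune-rich tumors without exception. All 16 measured genes were above 0, 8 passed and the median difference was 0.75. The list mean ran from 7.62 to 8.47 in immune-rich and from 6.83 to 7.45 in immune-poor tumors. The passing members were the non-classical class I genes H2-T23 and H2-T22, the peptide transporter gene Tap1, the trimming peptidase gene Erap1, the light chain gene B2m and the immunoproteasome genes Psmb8, Psmb9 and Psmb10. The classical genes H2-K1 and H2-D1 differed by 0.92 and 0.77 and did not pass.

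Psmb8, an immunoproteasome subunit that replaces a standard catalytic one, ranged from 6.87 over 7.29 to 7.66 in immune-rich and from 5.50 over 6.42 to 6.64 in immune-poor tumors. The difference of 1.07 (standard error 0.19, adjusted p = 0.0174) passed whichever tumor was left out. Psmb9 was higher by 1.06 (adjusted p = 0.02) and B2m by 0.70 (adjusted p = 0.0241). B2m was among the brightest signals named here, at 11.64 ± 0.27 (s.d., n = 7) against 10.94 ± 0.27 (s.d., n = 7), and still did not overlap between the sides.

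Interferon-stimulated genes followed the same order. Of 32 measured genes 31 were higher, 10 passed (Gbp2, Gbp3, Ifit3, Gbp4, Gbp7, Rtp4, Irgm1, Oasl2, Irf1 and Mx2) and the median difference was 0.66. The list mean was highest in NPE tumor 2, at 6.74, and lay between 5.50 and 6.03 in the other 6 immune-rich tumors and between 4.87 and 5.44 in the immune-poor ones.

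Gbp2, a guanylate-binding protein induced by interferon-gamma, ranged from 5.72 over 6.68 to 7.23 in immune-rich and from 4.20 over 4.89 to 5.27 in immune-poor tumors, and the middle median was 5.80. The difference was 1.80 (standard error 0.27, adjusted p = 0.00985). Gbp3, of the same family, was higher by 1.42 (standard error 0.22, adjusted p = 0.00985). Irf1, the transcription factor that drives many of these genes, was higher by 0.70 (adjusted p = 0.0166). All 3 were without overlap and passed whichever tumor was left out.

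Tgtp2, an interferon-inducible GTPase first found in T cells, was 7.30 ± 0.90 (s.d., n = 7) and 5.19 ± 0.89 (s.d., n = 7), a difference of 2.11 (adjusted p = 0.0242). It was highest in NPE tumor 2, at 8.68, and PE tumor 4, at 8.45. Its lowest immune-rich value, 6.42, stood just above its highest immune-poor value, 6.40, in PE tumor 5.

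Some of these genes hold an interferon-response type motif near their start sites, and others, among them Irf1, Psmb8 and Psmb9, do not. Promoters were taken from RefSeq (GRCm38.p6, 250 bases before to 50 after the start), and the motif GAAANNGAAA was searched on both strands, where it reads TTTCNNTTTC on the opposite one. It was present in 14 of the 23 interferon-stimulated genes with a promoter in the table (60.9%), in 5 of 15 MHC class I presentation genes (33.3%), in 3 of 11 B cell and plasma cell genes (27.3%), of which no list member passed, in 3 of 18 macrophage genes (16.7%), in 0 of 9 MHC class II genes, in 33 of 265 genes that passed as higher (12.5%) and in 618 of all 15687 genes (3.94%). The stretches from 100 bases before to 20 after the start of Gbp2 (chr3:142620563-142620682, plus strand), Gbp3 (chr3:142559944-142560063, plus strand, the one of 2 starts that holds the motif) and Tgtp2 (chr11:49064193-49064312, minus strand) show it in capitals, written 5′ to 3′ along each gene. They are shown because these are the interferon-inducible genes with the largest differences among those described here.
Gbp2: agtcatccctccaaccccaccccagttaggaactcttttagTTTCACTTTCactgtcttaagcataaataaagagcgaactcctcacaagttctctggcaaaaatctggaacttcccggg
Gbp3: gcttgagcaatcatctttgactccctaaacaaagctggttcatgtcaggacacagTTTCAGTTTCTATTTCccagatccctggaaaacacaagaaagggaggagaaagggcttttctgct
Tgtp2: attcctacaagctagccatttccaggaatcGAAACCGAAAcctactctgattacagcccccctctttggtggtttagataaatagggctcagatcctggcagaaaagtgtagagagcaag

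The motif begins 59 bases before the start of Gbp2, 70 bases before that of Tgtp2, and 45 and 39 bases before that of Gbp3, where 2 matches overlap. It lies on the opposite strand in Gbp2 and Gbp3 and on the gene's own strand in Tgtp2. A match describes these letters only and does not show that a factor was bound. The genes that passed as higher include list members such as Gbp2 and Gbp3, so the shares are not separate. None of the shares was tested.

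**Figure D3:**
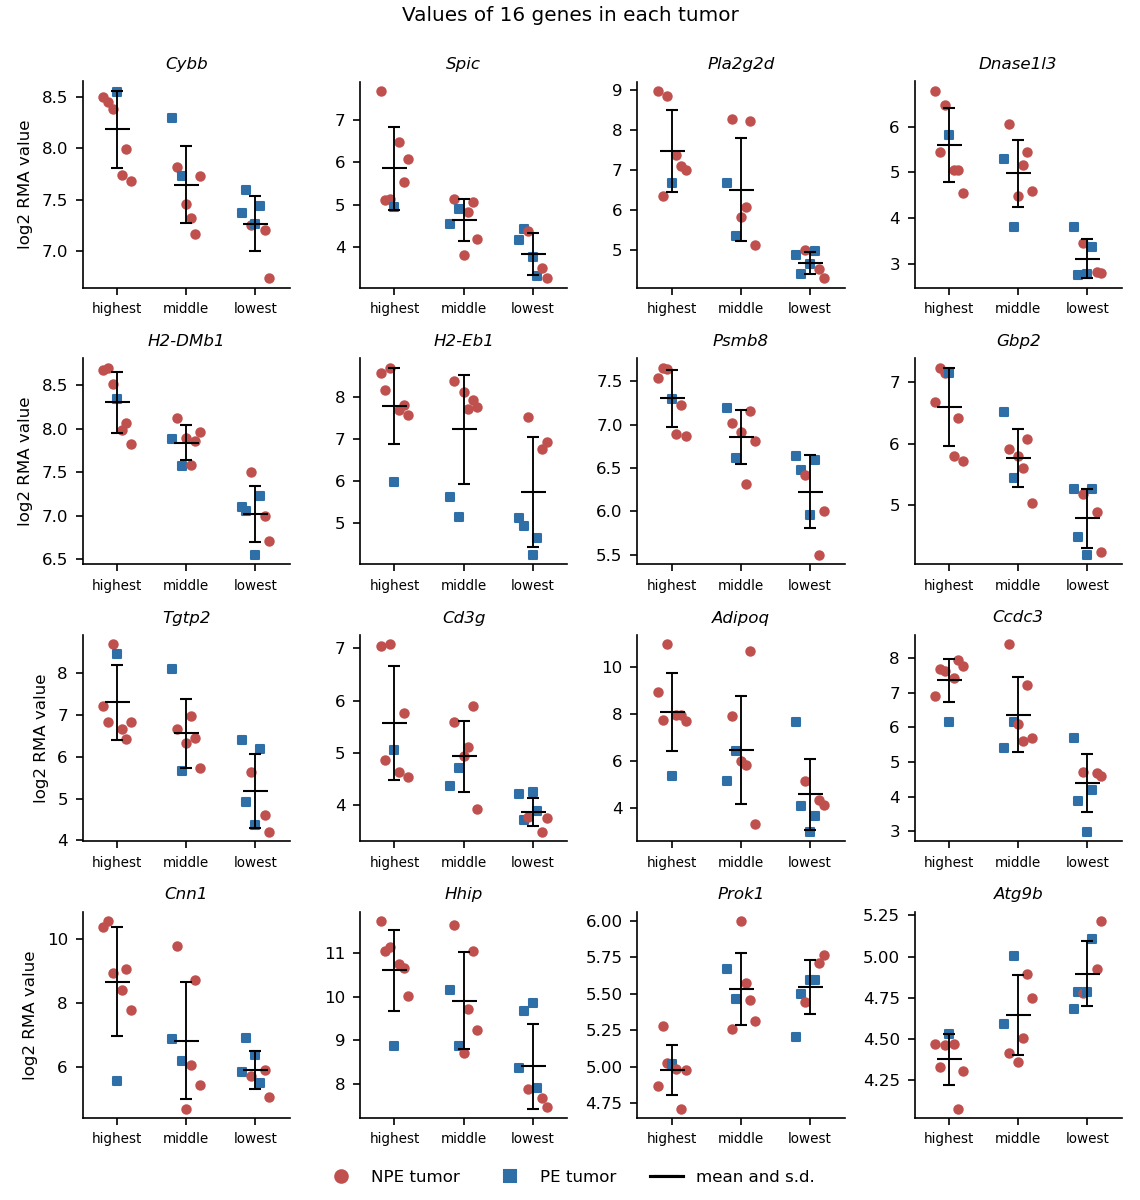
Log2 RMA values of 16 genes in each of 21 tumors, by the highest, middle and lowest 7 of the ranking (circles NPE, squares PE, bars mean and s.d., n = 7 each, separate axis for each gene, not starting at 0). Pla2g2d, Dnase1l3, H2-DMb1 and Gbp2 do not overlap between the highest and lowest 7, H2-Eb1 separates by genotype within every group, and the single PE tumor of the highest 7 has the lowest value there for Adipoq, Ccdc3, Cnn1 and Hhip.

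Few lymphocyte genes passed. Of 25 measured T cell and NK cell genes 20 were higher, 1 passed (Cd3g) and the median difference was 0.32. Cd3g, the gamma chain of the CD3 complex, ranged from 4.54 over 5.06 to 7.08 in immune-rich and from 3.49 over 3.77 to 4.25 in immune-poor tumors. It was near 7 in NPE tumors 4 and 2 only, and the difference of 1.70 (adjusted p = 0.0358) passed in 6 of the 14 fits that left out 1 tumor. Il7r, the receptor for interleukin-7, and Icos, a co-stimulatory receptor of activated T cells, differed by 1.42 and 1.15 with adjusted p = 0.055 and 0.0701. The other members did not pass. Among them the granzyme genes, Prf1, Nkg7 and the NK receptor genes Klrb1c, Klrk1 and Ncr1 ran from -0.12 for Prf1 to 0.44 for Nkg7. Cd8a, Il2rb and Ccl5 lay above these, at 0.52, 0.70 and 0.91.

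Among B cell and plasma cell genes 12 of 16 were higher, 0 passed and the median difference was 0.16. Jchain, which joins secreted IgM and IgA, had the largest difference of the list, 2.44 (adjusted p = 0.0505). It ranged from 5.85 to 9.60 in immune-rich and from 3.61 to 7.21 in immune-poor tumors, where NPE tumor 12 alone stood above 5.53. Dendritic cell genes were higher for 9 of 14 and mast cell genes for 7 of 10, with medians of 0.38 and 0.29 and 0 passing in either list.

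Neutrophil genes did not separate the sides. Of 14 measured genes 9 were higher, 0 passed and the median difference was 0.11. The list mean was 6.24 in NPE tumor 3 and between 3.85 and 4.37 in the other 6 immune-rich tumors, against 3.88 to 4.78 in the immune-poor ones. On the immune-rich side NPE tumor 3 alone carried a strong neutrophil signal.

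Regulatory and recruiting genes moved in part. Of 18 inhibitory checkpoint genes 11 were higher, 5 passed (Cd274, Pirb, Lgals9, Il10ra and Vsir) and the median difference was 0.25. Pirb, an inhibitory receptor that binds MHC class I, was higher by 0.84 (adjusted p = 0.0241), Lgals9, which encodes galectin-9, by 0.70 (adjusted p = 0.0241), and Il10ra, a chain of the interleukin-10 receptor, by 0.63 (adjusted p = 0.0429). Cd274, which encodes PD-L1, was higher by 0.85. The other 13 members did not pass and ran from -0.27 for Pdcd1lg2 to 0.58 for Cd200r1.

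Of 29 chemokine and chemokine receptor genes 22 were higher, 1 passed and the median difference was 0.22. The passing gene was Cxcl16, a membrane-bound chemokine for Cxcr6, at 8.56 ± 0.17 (s.d., n = 7) in immune-rich and 8.01 ± 0.13 (s.d., n = 7) in immune-poor tumors. Its difference of 0.54 (standard error 0.09, adjusted p = 0.0156) was without overlap and passed whichever tumor was left out. Ccr2, the receptor of inflammatory monocytes, differed by 1.28 (adjusted p = 0.0673). The other members that did not pass ran from -0.63 for Cxcl2, a neutrophil chemokine, to 1.79 for Cxcl13, a B cell chemokine, and the monocyte chemokines Ccl2 and Ccl8 lay on either side of 0, at -0.40 and 1.34.

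Complement genes were higher for all 13 measured members, 4 of which passed, with a median difference of 0.70. Of the passing genes 3 restrain complement. Serping1, the C1 inhibitor, was higher by 0.61 (adjusted p = 0.0253), Cd59a, which blocks the membrane attack complex, by 1.29 (adjusted p = 0.0289), and Cd55, which dissociates the C3 convertases, by 1.58. The other, C1ra, a protease of the C1 complex, was higher by 0.87 (adjusted p = 0.0287). Of 19 phagocyte lysosome and receptor genes 16 were higher and 1 passed, Lipa, the lysosomal acid lipase, at 0.67 (adjusted p = 0.0215), with a list median of 0.20. Neu1 was a member of that list and differed by -0.15.

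**Figure D4:**
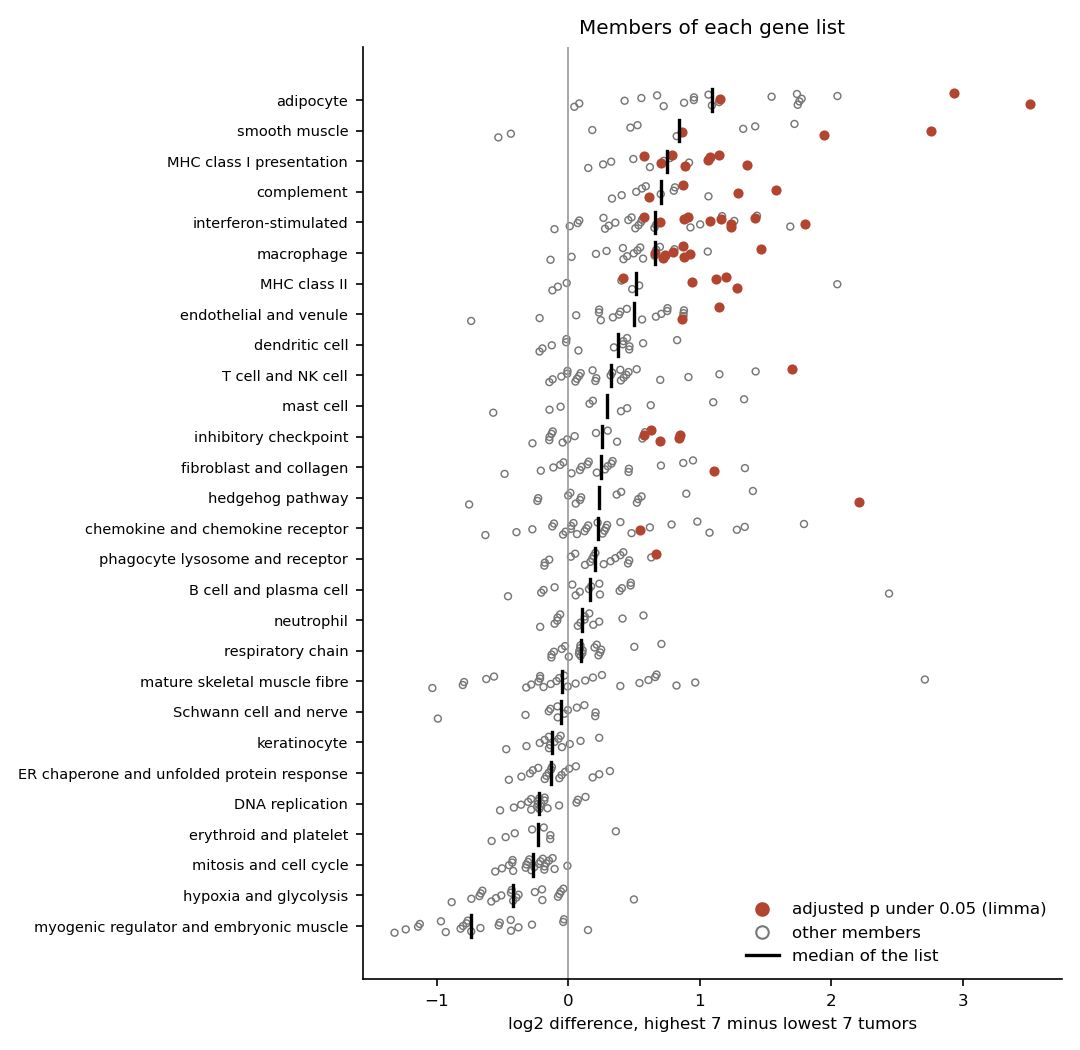
Log2 difference between the highest and lowest 7 tumors for every measured member of 28 gene lists (filled, adjusted p under 0.05 by limma, open, other members, vertical bar, list median). All members of the adipocyte, MHC class I presentation and complement lists lie above 0, all 22 of the mitosis list lie below 0 without a passing member, and no list has a passing member below 0.

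Genes of non-immune cells also differed between the sides, and the largest single differences were among them. Adipocyte genes were higher for all 21 measured members, with a median of 1.09, although only 3 passed (Adipoq, Rbp4 and Lpl). Adipoq, the fat cell hormone adiponectin, ranged from 5.36 over 7.94 to 10.96 in immune-rich and from 2.97 over 4.10 to 7.65 in immune-poor tumors. Its difference of 3.51 (standard error 0.75, adjusted p = 0.0301) was the largest of all that passed, yet the sides overlapped and it passed in 7 of the 14 fits that left out 1 tumor.

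The adipocyte list mean averaged 7.36 in immune-rich, 6.86 in middle and 6.08 in immune-poor tumors, with single tumors out of this order. It was 9.36 in NPE tumor 1, of the middle group, and 9.24 in NPE tumor 2, of the immune-rich side, while PE tumor 4, at rank 4, was at 6.11. Rbp4, the retinol carrier of liver and fat, was higher by 2.93 (adjusted p = 0.0342), with values of 10.59 and 10.32 in NPE tumors 3 and 2. With genotype as a covariate the differences of Adipoq and Rbp4 were 3.08 and 2.35, and neither passed. Within NPE tumors alone they were 4.00 and 3.08, and Adipoq passed.

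Ccdc3, a secreted protein of fat and endothelium, did not overlap between the sides. It ranged from 6.14 over 7.62 to 7.93 in immune-rich and from 2.98 over 4.61 to 5.68 in immune-poor tumors. The difference of 2.96 (standard error 0.35, adjusted p = 0.00442) passed whichever tumor was left out. Its highest value in the series, 8.39, was that of NPE tumor 6, at rank 9 in the middle group.

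Smooth muscle genes were higher for 10 of 12, 3 passed (Cnn1, Actg2 and Mylk) and the median difference was 0.84. Cnn1, the smooth muscle protein calponin, ranged from 5.57 over 8.96 to 10.56 in immune-rich and from 5.08 over 5.87 to 6.92 in immune-poor tumors. All 6 NPE tumors of the immune-rich side were above every immune-poor value, and PE tumor 4 lay among the immune-poor values. The difference of 2.76 (adjusted p = 0.0315) passed in 6 of the 14 fits that left out 1 tumor. Actg2, the gamma actin of smooth muscle, was higher by 1.95 (adjusted p = 0.0387).

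Of 20 endothelial and venule genes 18 were higher and 2 passed, with a median of 0.50. Tek, the angiopoietin receptor, was higher by 1.14 (adjusted p = 0.0448) and Erg, an endothelial transcription factor, by 0.86 (adjusted p = 0.0471). Of 22 fibroblast and collagen genes 17 were higher and 1 passed, Fap, the fibroblast activation protein, at 4.44 ± 0.42 (s.d., n = 7) against 3.34 ± 0.54 (s.d., n = 7), with a list median of 0.25. Cpxm2, a secreted carboxypeptidase-like protein, was higher by 2.17 (adjusted p = 0.0297), and Mab21l2, a gene of embryonic patterning, by 2.06 (adjusted p = 0.0494). Apart from Cpxm2 and Fap, which passed in 7 of the 14 fits each, these genes passed in 3 or 4 of them.

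Hhip, which binds hedgehog ligands and is itself induced by the pathway, was the only one of 16 hedgehog pathway genes to pass. It ranged from 8.87 over 10.76 to 11.74 in immune-rich and from 7.47 over 7.90 to 9.86 in immune-poor tumors, and was 2.21 higher (standard error 0.45, adjusted p = 0.0253). Within NPE alone, 6 immune-rich against 3 immune-poor tumors, it was 3.22 (adjusted p = 0.00531). With genotype as a covariate it was 2.28 and did not pass (limma adjusted p = 0.0645). It passed in 10 of the 14 fits that left out 1 tumor. The list had 12 members above 0 and a median of 0.23, and Ptch1 itself differed by 0.53 (adjusted p = 0.238).

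Embryonic muscle, proliferation and hypoxia genes were mostly on the other side of 0, without any member passing. The list of myogenic regulators and embryonic muscle genes had 20 of its 21 members below 0, with a median of -0.74. Fgfr4, a growth factor receptor of muscle precursors, was 6.25 ± 1.18 (s.d., n = 7) in immune-rich and 7.38 ± 0.38 (s.d., n = 7) in immune-poor tumors, a difference of -1.13 (adjusted p = 0.161). The list mean was 6.15 in NPE tumor 3 and between 8.04 and 9.10 in the other immune-rich tumors, against 8.61 to 9.34 in the immune-poor ones. Mature skeletal muscle fibre genes were higher for 12 of 28, with a median of -0.05 and 0 passing. This was near the 43.7% higher and the median of -0.03 over all genes.

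All 22 mitosis and cell cycle genes were lower, with a median of -0.27, and the list mean ranged from 4.45 to 6.77 in immune-rich and from 5.59 to 6.82 in immune-poor tumors. DNA replication genes were lower for 17 of 20, with a median of -0.22. Hypoxia and glycolysis genes were lower for 20 of 21, with a median of -0.42 and a mean of 7.76 to 9.19 against 8.52 to 9.43. The ranges overlapped broadly in all 3 lists. Respiratory chain genes had a median of 0.09, ER chaperone genes of -0.13, and the keratinocyte, Schwann cell and erythroid lists of -0.12, -0.06 and -0.23, with 0 passing in each.

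Genes that passed as lower were mostly dim and changed little. Their median level was 4.92, against 6.19 for the genes that passed as higher and 5.38 for all, and none belonged to a list. Prok1, a secreted ligand known from endocrine gland vessels, ranged from 4.71 over 4.98 to 5.28 in immune-rich and from 5.20 over 5.60 to 5.77 in immune-poor tumors, a difference of -0.57 (adjusted p = 0.0186). Atg9b, a lipid scramblase of autophagy, did not overlap between the sides and was lower by 0.52 (adjusted p = 0.0241).

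Grip2, a scaffold for glutamate receptors, differed by -0.71 (adjusted p = 0.0429), Eid3, a subunit of the SMC5/6 complex, by -0.68 (adjusted p = 0.0425) and Sh2d6, an SH2 adaptor, by -0.65 (adjusted p = 0.0332). Ccn1, a matrix-associated growth regulator, was the brightest of those named, at 8.98 ± 0.31 (s.d., n = 7) against 9.50 ± 0.10 (s.d., n = 7), a difference of -0.51 (adjusted p = 0.044). The 7 immune-poor values of Ccn1 lay within 9.34 to 9.61, and the immune-rich ones spread from 8.58 to 9.45. Of these 6 genes Prok1 alone passed whichever tumor was left out.

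Genotype was then added as a covariate, since the sides differed in make-up. The adjusted comparison had 83 higher probe sets (0.374%) and 5 lower ones, of which 80 and 4 had passed without it, and all 367 and 68 kept their sign. The median difference of the 367 was 0.85. Of 43 passing genes with values given above, which leave out Cd274 and Cd55, 20 passed again. Among them were Ccdc3, Pla2g2d, Dnase1l3, Cybb and H2-DMb1, each at an adjusted p = 0.0227, and Tgtp2, Gbp2, Psmb8 and B2m. Adipoq, Rbp4, Cnn1 and Actg2 did not pass, with differences of 3.08, 2.35, 2.41 and 1.62. Within NPE tumors alone, however, Adipoq and Cnn1 passed, at 4.00 and 3.62 (limma adjusted p = 0.0424 and 0.0384). Rbp4 did not pass there, at 3.08 (limma adjusted p = 0.111).

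Within NPE tumors alone, 93 probe sets were higher and 13 lower, 54 and 0 of which had passed in the full comparison. Whether the difference between the sides itself depended on genotype could not be fitted, because only 1 PE tumor was immune-rich. With the score as a continuous measure over all 21 tumors, 1125 probe sets rose and 324 fell with it, including 339 of the 367 and 45 of the 68.

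**Figure D5:**
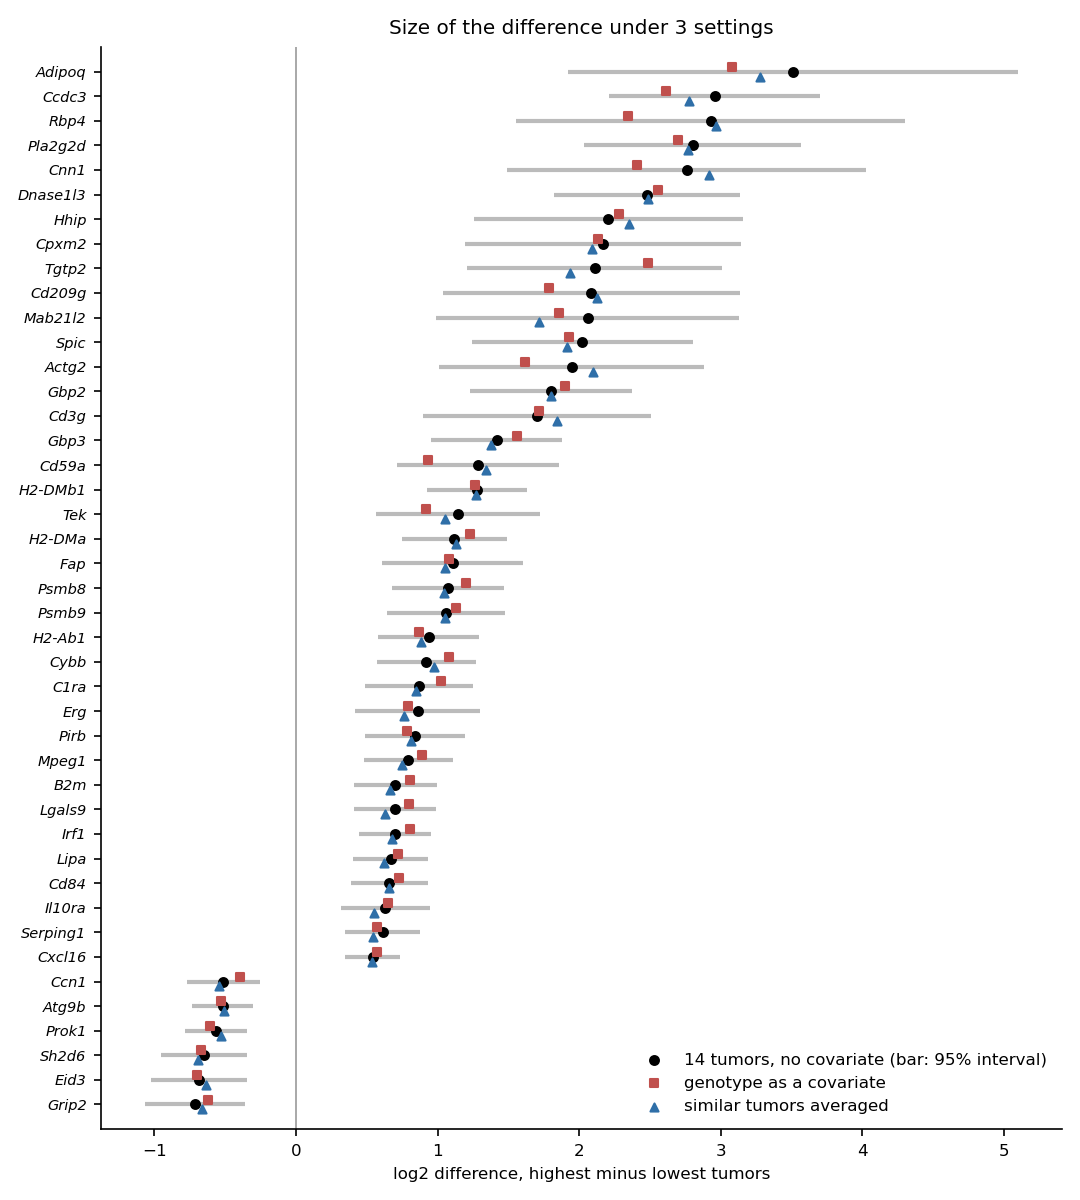
Log2 difference between highest and lowest tumors for 43 genes with values in the text that passed, Cd274 and Cd55 left out (black, 14 tumors without covariate, gray bar, 95% interval, red squares, genotype as a covariate, blue triangles, each of 3 pairs of similar tumors averaged). The 3 estimates of each gene lie on the same side of 0, and the gap between them is widest for Rbp4, Tgtp2, Cnn1, Actg2 and Adipoq.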

How the data were processed

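Total RNA of each tumor was hybridized to 1 Clariom S Mouse array. The authors deposited log2 signals from RMA (background correction, quantile normalization, median polish); the labels name Affymetrix Expression Console 1.1 and the methods also Partek Genomics Suite. The number of arrays limits the precision. From 28846 probe sets, 94 controls and 6546 with names starting MG- were left out, and the 6 of the ranking genes were not tested. Gene symbols came from GEO's platform annotation, which can be old (1 symbol for 19572 probe sets, none for 2634); for 55 genes with several probe sets the brightest was used.

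Differences between immune-rich and immune-poor tumors came from limma 3.58.1 (lmFit, eBayes, R 4.3.3), with 2-sided p-values, no covariate and Benjamini-Hochberg adjustment over 22200 probe sets at 0.05. Code was tested on simulated data. Figures and exact tests used Python 3.11.15, matplotlib 3.10.9 and scipy 1.17.1.

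The tumors compared, the 28 gene lists and the tests were chosen with earlier results of these data known. Genes named with full statistics are among the 12 of largest difference in each direction that passed, the 3 members of smallest p of each immune list and the 2 of each other list, and Neu1, Ptch1, H2-Eb1 and Derl3. Other list members were named after their values were seen. The paper calls these tumors biologically independent, but the labels do not state that each came from a separate animal. The p-values thus measure the spread between these samples. Tumor numbers shared by NPE and PE did not pair tumors: deviations from the genotype means correlated at -0.31 to 0.13. Alternatives changed the ranking, tumors, covariates, normalization, filter and variance model.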

Additional observations from a re-analysis of the deposited data

Results flagged for a closer look

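With Dixon's test at the 95% level applied to each side of the named genes, the list means and 2 array measures, 5 values stood apart from the other 6 of their side; chance alone flags about 1 in 20 groups, and 158 groups were examined. On the immune-rich side NPE tumor 3 stood apart in 3 list means. Its neutrophil mean was 6.24, with the others at 3.85 to 4.37, its mature skeletal muscle fibre mean was 7.39, with the others at 9.17 to 10.47, and its myogenic regulator and embryonic muscle mean was 6.15, with the others at 8.04 to 9.10. H2-Eb1 was 5.98 in PE tumor 4, the only PE tumor of that side, with the others at 7.59 to 8.71. On the immune-poor side Mab21l2 was 6.42 in PE tumor 2, with the others at 4.06 to 4.80.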

How the results depend on the processing

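The sizes of the differences were mostly steadier than the counts that passed. With the array median as a covariate, though, the median difference of the 367 higher probe sets fell from 0.86 to 0.53. Against 367 higher and 68 lower probe sets, 83 and 5 passed with genotype as a covariate, 93 and 13 in NPE tumors only, 79 and 8 with the title number range as a block, 1125 and 324 with the score over 21 tumors, 90 and 4 for the highest against the lowest 5, and 51 and 11 for the highest against the lowest 10. Ranking by Csf1r, C1qb and Lyz2 gave 17 and 1 and turned the genotype make-up (Fisher's exact p = 1). Ranking without Csf1r gave 160 and 9, without Cd3e 94 and 8, without Cd4 138 and 25, and with the genes scaled to equal spread 94 and 8. With the MG- probe sets tested too, 224 and 26 of the same probe sets passed, and with the methods' plain test 112 were higher. More passed as lower with 3 tiers of tumors (133), arrays centred on their median (144) and array weights (180). Of the alternatives added after seeing the data, 73 and 0 passed with pairs of similar tumors as a random block (correlation 0.64), 1 and 0 with pairs averaged, 0 and 0 with 1 of each pair left out, whether the sides were kept (1699 and 1357 at an unadjusted p under 0.05) or the tumors ranked again, 0 and 0 with the array median as a covariate (712 and 1126 unadjusted), 155 and 25 within title numbers 28 to 35, and 0 and 0 within 1 to 10 and within 18 to 23, where 1 tumor met 2. The replicate block on tumor numbers gave 0 and 0; the numbers shared by the sides were 3, so few degrees of freedom remained.

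Leaving out 1 tumor gave 77 to 549 higher and 3 to 135 lower probe sets. The fewest passed without NPE tumor 12 (77 and 3), NPE tumor 11 (86 and 4) or NPE tumor 4 (113 and 7), and the most without PE tumor 4 (549 higher) or NPE tumor 5 (135 lower). For 49 of the genes with values in the text, the sign turned in 7 of 2254 values, all within title numbers 18 to 23. These were Adipoq at -0.30, Cnn1 at -0.12, Cd209g at -0.0487, Mab21l2 at -0.0938, Eid3 at 0.0159, Serping1 at -0.0244 and Fgfr4 at 1.04. Among the 49 genes, which leave out Cd274 and Cd55, 43 passed in the main comparison. Of these 43, 14 passed whichever tumor was left out, 14 with pairs as a random block and 0 with pairs averaged. Of 1288 list medians, 53 moved by more than the spread between tumors. The cause of these changes was not tested. Depth has no equivalent on arrays. Of the 49 genes, Dnase1l3 and Fap were not above the background median in every immune-poor tumor.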
